A study of Mus musculus with 8 samples.

Results

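The protein components of the small nucleolar ribonucleoproteins (snoRNPs) and the factors that put them together were followed through 10 genes, Fbl, Nop56, Nop58, Dkc1, Gar1, Nhp2, Nop10, Nolc1, Naf1 and Shq1, out of 24921 genes in the deposited table. They were chosen by name, and the table's values for all RefSeq transcript entries of a gene were summed. All 10 were in the table and passed the filter for testing. Shq1 passed it through the CX45 libraries and 1 of the 8C libraries only. RNA came from embryos of C57BL/6 mice, in 4 groups of 2 Smart-seq libraries named CX45, CX22, 8C and 2C. Smart-seq makes full-length cDNA from minute amounts of RNA by template switching and amplification. 8C and 2C are taken to be embryos of 8 and 2 cells, while CX45 and CX22 are not explained by the labels, which also state no treatment, time, number of pooled embryos or control group. The study's title is on RNA polymerase I and how chromatin is organised. With no control named, all 6 pairs of groups were compared.

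Small nucleolar RNAs guide chemical changes to ribosomal RNA while it is being made in the nucleolus. Box C/D RNAs direct the addition of methyl groups to the ribose sugar by the enzyme fibrillarin (Fbl), which sits on the guide RNA with the paired scaffold proteins Nop56 and Nop58 and the small RNA-binding protein Snu13. Box H/ACA RNAs direct the conversion of uridine to pseudouridine by dyskerin (Dkc1), which works with Gar1, Nhp2 and Nop10, and the same proteins bind telomerase RNA. Naf1 holds the place of Gar1 during assembly, Shq1 keeps newly made dyskerin from binding RNA too early, and Nolc1 (Nopp140) is a chaperone of both kinds of particle between the nucleolus and the Cajal body.

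Levels are in FPKM, fragments per kilobase of transcript, scaled to the mapped fragments of the library, so they can be compared between genes per length. The steps between low values implied 9.75 to 20.3 M (M, 1e6) fragments per library. The replicates of a group differed far more than counting error in 8C, CX22 and CX45, where the median chi-square per gene was 39.0 to 140 times that of chance, with CX22 the most uneven. In 2C it was 1.33 times, near but above sampling noise, and the mean of both 2C libraries entered the fit as 1 sample, so 2C means carry no SD. The labels do not say that replicates came from separate embryos, and the p-values therefore cover the spread among these libraries, part of which may be technical. In bulk libraries, fewer cells with a transcript cannot be told apart from less of it per cell. The marker lists fixed for the stages were checked as sums, which a few genes dominate. Oocyte transcripts (Oosp1, Zp3, Gdf9 and Bmp15) summed to 130 and 149 FPKM in CX45, 1900 to 2480 in CX22, 23.4 and 27.4 in 8C, and 2540 to 2560 in 2C, mostly as Oosp1 and Bmp15 in 2C and CX22. Zp3 alone differed little between 8C (13.3 and 13.4 FPKM) and 2C (14.7 and 15.5 FPKM). The 8-cell markers Nanog, Tead4, Dppa2 and Dppa4 summed to 902 to 1200 FPKM in CX45, at most 72.2 in CX22, 1270 to 1600 in 8C, and 62.6 to 64.5 in 2C.

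A gene was called when limma gave an adjusted p under 0.05 (Benjamini-Hochberg over 11873 genes) and a log2 fold change of at least 1 in size. Between the 8C and 2C groups, 7 of the 10 genes rose in 8C, where 16.3% of all tested genes were called higher. The 3 not called were Dkc1, Naf1 and Shq1. Between CX45 and CX22, 8 of the 9 genes other than Shq1 rose in CX45, with 23.0% of all tested genes called higher, and Dkc1 was the exception. Shq1 was also called there, but it entered the test only through libraries of the groups in which it was high, and it is left out of this count. None of the 10 was called by limma between CX22 and 2C, where 3.89% of all genes were called, and 1 (Nop58) had an unadjusted p under 0.05, beside 1921 of the 11873 genes. None was called between CX45 and 8C either, where 0.665% of all genes were called, and again 1 (Nop58) had an unadjusted p under 0.05, beside 2286 of the 11873 genes. Against 2C, 7 rose in CX45, with 16.2% of all genes called higher. Against 8C, 7 were lower in CX22 and passed the test, with 21.4% of all genes called lower. All of these comparisons share libraries with others. The calls of Fbl, Nop58 and Nhp2 between pairs of groups held under all 19 alternatives.

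The median log2 fold change of the 9 genes other than Shq1 was 2.31 in 8C against 2C and 1.84 in CX45 against CX22, beside medians of -0.04 and 0.47 over all tested genes. It was 0.32 in CX22 against 2C and -0.04 in CX45 against 8C, beside medians of -0.07 and 0.31 over all tested genes. Because the median gene stood above 0 in CX45, values near 0 for a snoRNP gene in CX45 against 8C lie below the median gene. After libraries were scaled to an equal median, the median over all genes in CX45 against 8C was 0 and that of the 9 genes -0.58. Leaving out 8C replicate 1 left 3 of the 7 calls in 8C against 2C (Fbl, Nop58 and Nhp2), and leaving out 8C replicate 2 left 4 (Nop10 in addition). In those fits 631 and 579 of all 11873 genes were called higher, against 1940 in the main fit. In CX45 against CX22 the count of 8 was 5 after quantile normalization and 4 without CX45 replicate 2. All genes called higher there were 2009 and 1579, against 2729 in the main fit. Without 8C replicate 1 and without 8C replicate 2, the counts were 4 and 4 in CX45 against 2C, and 4 and 3 in CX22 against 8C. All genes called higher in CX45 against 2C were then 790 and 775, against 1924. All genes called lower in CX22 against 8C were then 1011 and 980, against 2546.

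**Figure D1:**
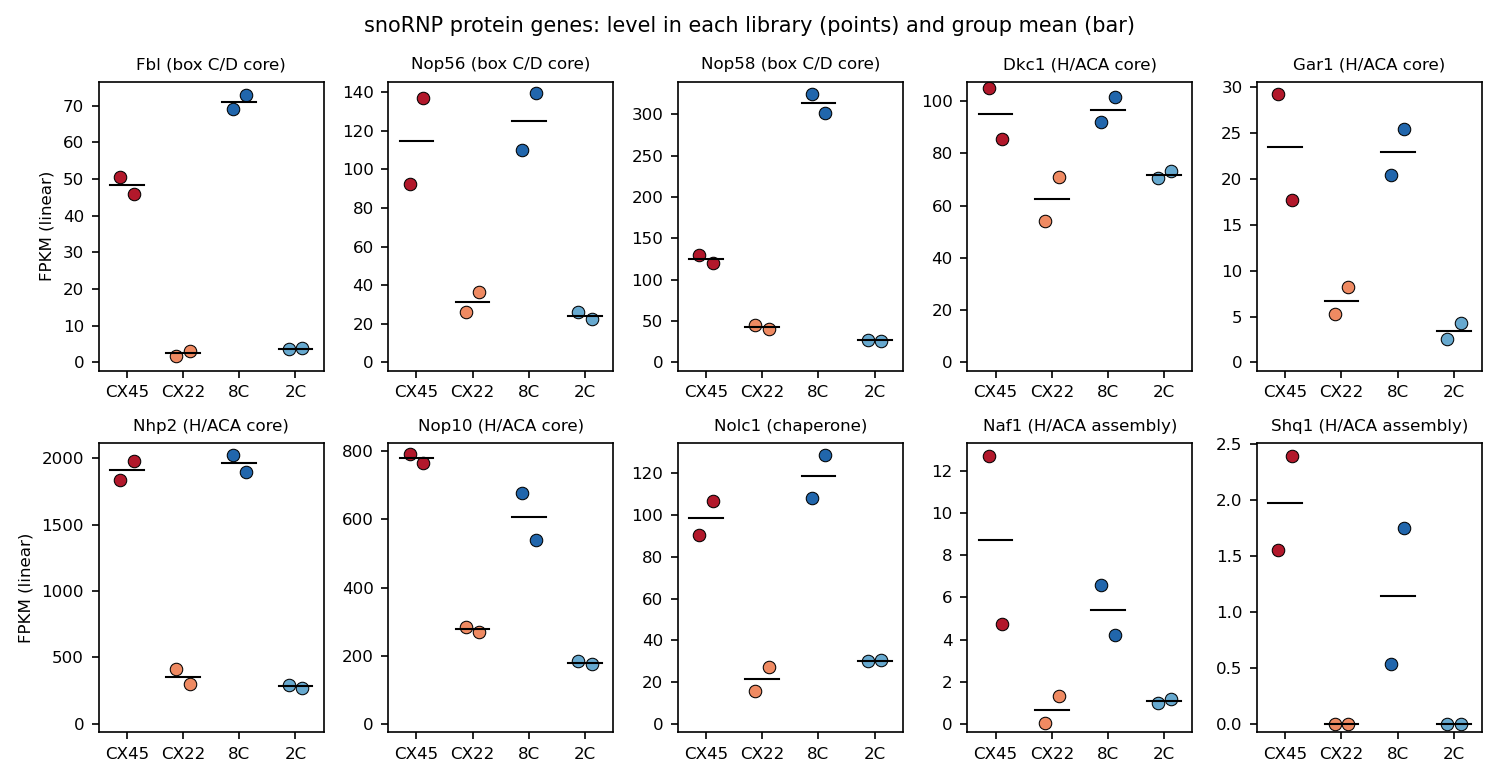
Level of each of the 10 snoRNP protein genes in FPKM (linear axes, 1 per gene) in the 2 libraries of CX45, CX22, 8C and 2C; points are libraries and black bars are group means. Most genes are high in CX45 and 8C and low in CX22 and 2C, Dkc1 differs little between groups, and Nop58 is the gene whose CX45 libraries, at 130 and 120 FPKM, lie farthest below its 8C libraries.

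Promoters are shown of 5 genes called higher both in 8C against 2C and in CX45 against CX22 (Nhp2, Nolc1, Gar1, Nop56 and Nop58). That of Dkc1, which was not called in any comparison, is shown with them. Nop10 was also called higher in both, but its promoter is not printed. The 150 bases before its start held no match to the letters below. Nop56 and Gar1 were the most alike in pattern over the 4 groups, and the mean of Nop58 in CX45 was 40.0% of that in 8C. Promoter sequences came from RefSeq on build GRCm38.p6, 250 bases before to 50 bases after the annotated start, and 8 of the 10 genes had one (not Fbl and Naf1). The 150 bases before the start are printed, read 5′ to 3′ in the direction of the gene. Capitals mark every match, on either strand, to the E-box (letters CACGTG), the site bound by ETS factors (letters CCGGAAG), the GC box (letters GGGCGG), the CCAAT box (letters as in its name), the TATA box (letters TATAAA), the site bound by NRF1 (letters GCGCATG) and the palindrome TCGCGA. Matches that overlap or touch run together.
Nhp2 promoter, chr11:51619623-51619772, plus strand: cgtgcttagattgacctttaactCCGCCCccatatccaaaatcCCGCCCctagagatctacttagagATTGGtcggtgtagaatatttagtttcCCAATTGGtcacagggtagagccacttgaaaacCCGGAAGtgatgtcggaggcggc
Nolc1 promoter, chr19:46075697-46075846, plus strand: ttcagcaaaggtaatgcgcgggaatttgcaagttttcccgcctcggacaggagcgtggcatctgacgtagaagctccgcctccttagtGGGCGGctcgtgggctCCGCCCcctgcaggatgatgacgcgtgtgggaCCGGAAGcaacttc
Gar1 promoter, chr3:129831397-129831546, minus strand: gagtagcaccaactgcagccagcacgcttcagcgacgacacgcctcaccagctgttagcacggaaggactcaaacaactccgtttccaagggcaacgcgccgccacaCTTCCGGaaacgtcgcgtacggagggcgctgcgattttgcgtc
Nop56 promoter, chr2:130274262-130274411, plus strand: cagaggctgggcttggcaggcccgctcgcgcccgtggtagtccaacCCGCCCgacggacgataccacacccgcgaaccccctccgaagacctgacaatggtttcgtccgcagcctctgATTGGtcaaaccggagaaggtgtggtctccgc
Nop58 promoter, chr1:59684856-59685005, plus strand: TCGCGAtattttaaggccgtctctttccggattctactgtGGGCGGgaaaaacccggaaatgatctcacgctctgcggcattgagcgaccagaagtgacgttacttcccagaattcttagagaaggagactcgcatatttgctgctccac
Dkc1 promoter, chrX:75095704-75095853, plus strand: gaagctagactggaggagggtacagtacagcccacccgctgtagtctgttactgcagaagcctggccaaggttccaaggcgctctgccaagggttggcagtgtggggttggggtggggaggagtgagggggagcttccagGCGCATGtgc
In the full 300 bases, the ETS letters stood in 4 of the 8 promoters (Gar1, Nhp2, Nolc1 and Shq1), against 8.86% of 32851 promoters in the table and 19.97% of 9528 tested genes with a promoter. The GC box stood in 5 (Nop56, Nop58, Nhp2, Nolc1 and Shq1), against 35.66% of all promoters and 64.45% of tested genes. The CCAAT box stood in 4 (Nop56, Dkc1, Nhp2 and Nop10), against 37.41% and 44.51%. The E-box letters stood in 0 of 8, against 7.15% of all promoters and 11.77% of tested genes. The TATA box (13.62% of all promoters, 10.14% of tested genes) and the NRF1 letters (3.91% and 7.93%) stood in the Dkc1 promoter alone of the 8. TCGCGA (2.5% and 5.92%) stood in that of Nop58 alone. With 8 promoters these are descriptions of the sequence and were not tested.

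Among the box C/D proteins, Fbl encodes the methyltransferase itself and lies at chr7:28954767-28964288 (mm9, the build of the authors' table, for all positions in the paragraphs that follow). Fbl stood at 50.6 and 46.0 FPKM in CX45, 1.85 and 3.21 FPKM in CX22, 69.2 and 73.1 FPKM in 8C, and 3.59 and 3.90 FPKM in 2C. The groups did not overlap in any pair, and the low libraries held an implied 21.6 to 59.7 fragments each. Fbl rose in CX45 against CX22 by a log2 fold change of 3.83 (SE 0.30, adjusted p = 0.00392) and in 8C against 2C by 3.93 (SE 0.37, adjusted p = 0.0035). Its mean in CX45 was 67.9% of its mean in 8C, and that difference did not pass limma (log2 fold change -0.55, 95% interval -1.33 to 0.23, adjusted p = 0.414). In CX22 against 2C it stood at -0.45 on the log2 scale (SE 0.37, adjusted p = 0.715).

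Nop56 (chr2:130100148-130105049) and Nop58 (chr1:59741850-59768354) encode related proteins that hold opposite ends of the box C/D guide. Nop56 stood at 92.7 and 137 FPKM in CX45, 26.0 and 36.7 FPKM in CX22, 110 and 140 FPKM in 8C, and 26.0 and 22.4 FPKM in 2C. CX45 and 8C overlapped (log2 fold change -0.14, 95% interval -0.97 to 0.70, adjusted p = 0.889). Nop56 rose in CX45 against CX22 by 1.83 (SE 0.32, adjusted p = 0.0146) and in 8C against 2C by 2.31 (SE 0.39, adjusted p = 0.0135). The first call was lost without CX45 replicate 2 and the second without either 8C library (adjusted p 0.00344 to 0.0656 and 0.00103 to 0.0802 over the alternatives). A non-coding entry of Nop56 carried 13.5% of its sum in 1 CX45 library, 16.2% and 27.3% in CX22, 14.9% in 1 8C library and 0 elsewhere.

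Nop58 stood at 130 and 120 FPKM in CX45, 45.5 and 40.8 FPKM in CX22, 325 and 302 FPKM in 8C, and 27.6 and 26.2 FPKM in 2C. No 2 groups overlapped, and the order from low to high was 2C, CX22, CX45 and 8C. Nop58 rose in 8C against 2C by 3.49 (SE 0.23, adjusted p = 0.00201) and in CX45 against CX22 by 1.52 (SE 0.18, adjusted p = 0.00705). The mean in CX45 was 40.0% of that in 8C, and limma gave a log2 fold change of -1.32 (95% interval -1.80 to -0.83, unadjusted p = 0.00111), which was not called at an adjusted p of 0.0642. It was called with the 2C libraries kept apart (adjusted p = 0.0124). That change adds a residual degree of freedom from 2C, the group whose replicates differed least. All genes called in CX45 against 8C went from 79 to 1037 with it. Over the alternatives that kept all libraries the adjusted p ran from 0.0124 to 0.139. Nop58 was not called in CX45 against 8C in any fit that left a library out. In CX22 against 2C, Nop58 stood 0.66 higher (SE 0.23, adjusted p = 0.259). The difference of CX45 from CX22 was set against that of 8C from 2C in the same fit. For Nop58 the result was -1.975 on the log2 scale (SE 0.29, adjusted p = 0.044), and Nop58 was the only one of the 10 genes called, with 3.60% of all genes called in either direction and 0.404% called lower. That call was lost on leaving out 8C replicate 1 or 2 (adjusted p = 0.195 and 0.177), CX45 replicate 1 or 2 (adjusted p = 0.0838 and 0.0945), after quantile normalization (adjusted p = 0.0949), with a filter of 5 FPKM, with no trend and with the replicate block. The value lay between -2.50 and -1.88, and the adjusted p between 0.00787 and 0.195, over the 19 alternatives.

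**Figure D2:**
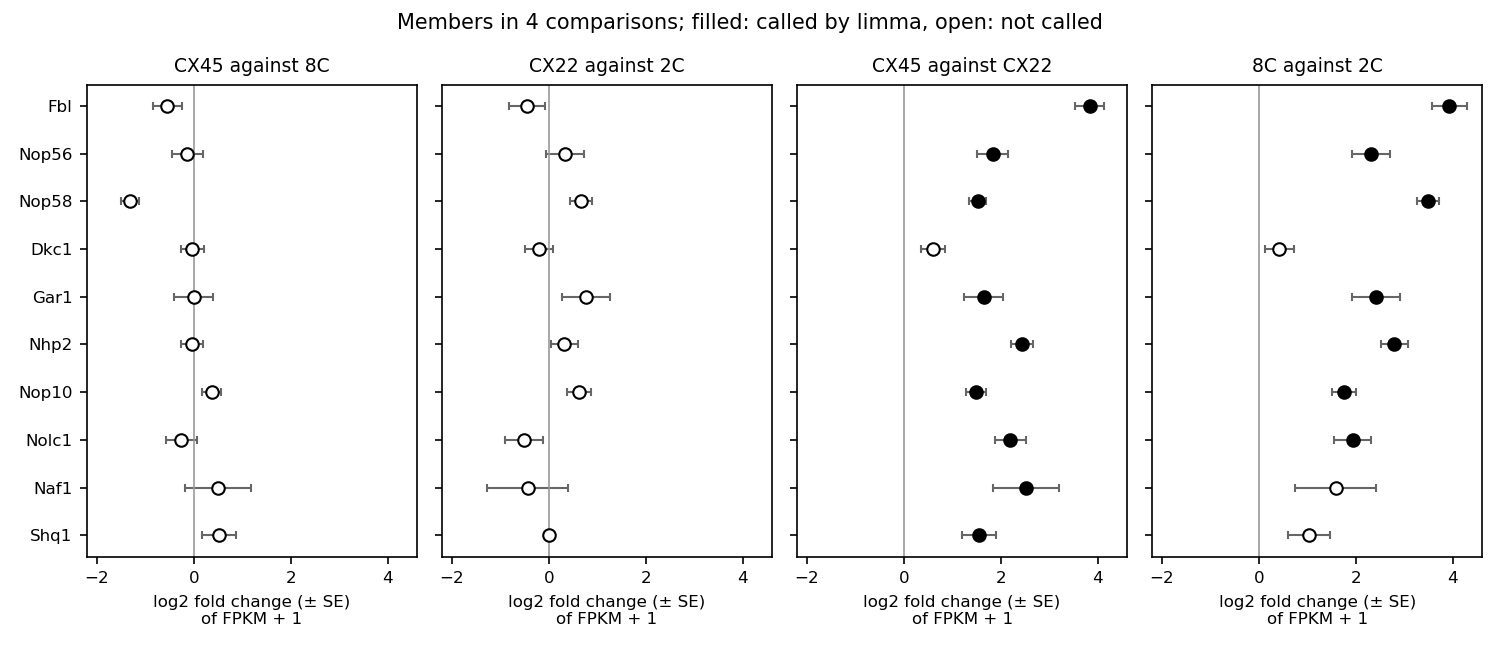
Fitted log2 fold change of FPKM + 1 with its SE (horizontal axis) for the 10 genes (rows) in 4 comparisons; filled points were called by limma and open points were not. In CX45 against 8C and CX22 against 2C all points are open, with Nop58 farthest from 0 in the first at -1.32; in CX45 against CX22 and 8C against 2C, 9 and 7 points are filled. Shq1 has no SE in CX22 against 2C, where it was listed at 0 in all libraries.

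The ratio of Nop58 to Nop56 in a library was 1.41 and 0.877 in CX45, 1.75 and 1.11 in CX22, 2.95 and 2.16 in 8C, and 1.06 and 1.17 in 2C. The 8C ratios lay above those of every other group. The ratio of Nop58 to Fbl was 2.57 and 2.61 in CX45, 24.6 and 12.7 in CX22, 4.69 and 4.13 in 8C, and 7.68 and 6.74 in 2C. Here the CX45 ratios were the lowest and no groups overlapped. With 2 libraries a group these ratios were not tested. Snu13, the fourth box C/D protein, was 23.0 and 27.0 times the level of Nop58 in CX45, 13.3 and 12.8 times in CX22, 11.2 and 11.0 times in 8C, and 15.6 and 16.9 times in 2C. Its own level was 2994 and 3244 FPKM in CX45, 607 and 522 FPKM in CX22, 3626 and 3310 FPKM in 8C, and 431 and 443 FPKM in 2C.

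**Figure D3:**
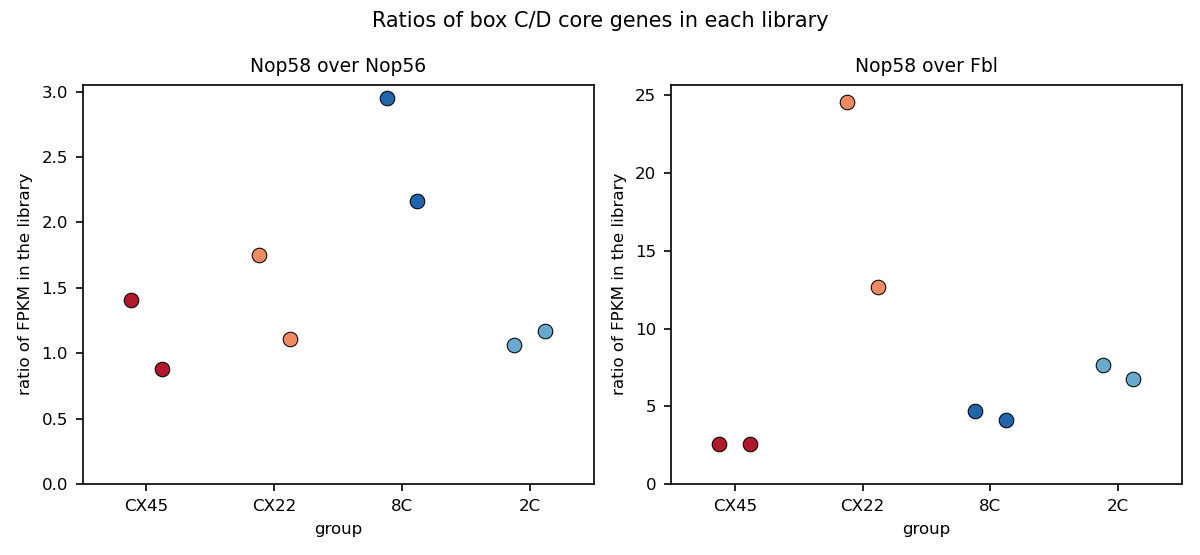
Ratio of FPKM values within a library (vertical axes, linear from 0) of Nop58 over Nop56 (left) and of Nop58 over Fbl (right) for the 2 libraries of CX45, CX22, 8C and 2C. On the left the 8C libraries are highest at 2.95 and 2.16; on the right the CX45 libraries are lowest at 2.57 and 2.61.

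Of the H/ACA proteins, dyskerin is the pseudouridine synthase, and its gene Dkc1 (chrX:72341193-72355115) stood apart by how little it differed. Dkc1 stood at 105 and 85.3 FPKM in CX45, 54.2 and 71.2 FPKM in CX22, 92.0 and 102 FPKM in 8C, and 70.5 and 73.2 FPKM in 2C. The CX45 and 8C libraries overlapped, as did CX22 and 2C. The log2 fold change was 0.60 in CX45 against CX22 (95% interval -0.03 to 1.23, adjusted p = 0.118) and 0.42 in 8C against 2C (95% interval -0.35 to 1.19, adjusted p = 0.306). In 2C it was the third highest of the 10 genes and in 8C the sixth. Its percentile among all tested genes stayed between 90.8 and 91.9 in the 4 groups. That of Fbl was 85.4 in CX45, 40.1 in CX22, 89.8 in 8C and 45.8 in 2C. A narrow range of percentiles was not peculiar to Dkc1. Nop10 was at percentile 96.8 in 2C and 98.2 in 8C, with a log2 fold change of 1.75 between them. Nhp2 was at 98.4 in CX22 and 99.6 in CX45, with a log2 fold change of 2.43. For genes this high, the percentile therefore says little about the size of a change.

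Nhp2 (chr11:51433275-51437220), a small RNA-binding protein related to Snu13, was the highest of the 10 genes in all 4 groups. It stood at 1836 and 1978 FPKM in CX45, 412 and 302 FPKM in CX22, 2025 and 1898 FPKM in 8C, and 297 and 268 FPKM in 2C. The CX45 and 8C libraries overlapped (log2 fold change -0.04, 95% interval -0.65 to 0.57, adjusted p = 0.977). Nhp2 rose in CX45 against CX22 by 2.43 (SE 0.23, adjusted p = 0.00515) and in 8C against 2C by 2.79 (SE 0.28, adjusted p = 0.00409).

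Nop10 (chr2:112102083-112103055), the smallest protein of the particle, was second in all 4 groups. It stood at 793 and 764 FPKM in CX45, 285 and 270 FPKM in CX22, 677 and 539 FPKM in 8C, and 184 and 175 FPKM in 2C. Both CX45 libraries lay above both 8C libraries, in a comparison where the median over all tested genes was 0.31 on the log2 scale. The share of all genes without overlap there was not counted. The difference of Nop10 did not pass limma (log2 fold change 0.37, 95% interval -0.16 to 0.89, adjusted p = 0.42) and changed sign after median scaling (-0.17). Nop10 rose in CX45 against CX22 by 1.48 (SE 0.20, adjusted p = 0.00857) and in 8C against 2C by 1.75 (SE 0.25, adjusted p = 0.0086). Both calls were lost after quantile normalization, and the second also without 8C replicate 1 (adjusted p 0.00122 to 0.0685 and 0.000417 to 0.0736 over the alternatives). In CX22 it stood above 2C by 0.63 (SE 0.25), which was not called (adjusted p = 0.325).

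Gar1 (chr3:129527830-129534314), which completes the mature particle, was the lowest H/ACA core gene throughout. It stood at 29.3 and 17.7 FPKM in CX45, 5.23 and 8.25 FPKM in CX22, 20.4 and 25.5 FPKM in 8C, and 2.55 and 4.35 FPKM in 2C. The 8C libraries lay between the CX45 libraries (log2 fold change -0.002, 95% interval -1.05 to 1.05, adjusted p = 1). Gar1 rose in CX45 against CX22 by 1.65 (SE 0.40, adjusted p = 0.0336) and in 8C against 2C by 2.42 (SE 0.49, adjusted p = 0.0214). Both calls were lost without either 8C library, and the first also without CX22 replicate 1 or either CX45 library, after median scaling or quantile normalization and with the replicate block (adjusted p 0.0156 to 0.126 and 0.00263 to 0.112 over the alternatives). Nhp2 exceeded Gar1 by 62.8 and 112 times in CX45, 78.7 and 36.6 times in CX22, 99.3 and 74.5 times in 8C, and 116 and 61.6 times in 2C. These ratios overlapped between all groups. Nhp2 exceeded Dkc1 by 17.5 and 23.2 times in CX45, 7.59 and 4.24 times in CX22, 22.0 and 18.7 times in 8C, and 4.21 and 3.66 times in 2C.

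Together the 4 H/ACA core genes held 42.9 and 44.5 of every 10000 FPKM in CX45, 13.3 and 13.5 in CX22, 40.6 and 38.3 in 8C, and 9.97 and 11.0 in 2C. The 3 box C/D core genes held 4.24 and 4.75 in CX45, 1.29 and 1.68 in CX22, 7.27 and 7.68 in 8C, and 1.03 and 1.11 in 2C. The box C/D share in CX45 thus lay below that in 8C in both libraries, and the H/ACA share lay above it. The summed FPKM of the H/ACA genes overlapped, at 2760 and 2850 in CX45 and 2810 and 2560 in 8C. Single genes weighed heavily in both contrasts. Of the H/ACA core genes Nop10 had the largest log2 fold change in CX45 against 8C, at 0.37, which was not called. Of the box C/D core genes Nop58 differed most and Nop56 overlapped. Nhp2 made up 66.5% and 69.5% of the H/ACA sum in CX45, 54.4% and 46.3% in CX22, 71.9% and 74.0% in 8C, and 53.6% and 51.5% in 2C.

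Nolc1 (chr19:46150337-46160033), the chaperone of both particles, stood at 90.7 and 107 FPKM in CX45, 16.0 and 27.1 FPKM in CX22, 108 and 129 FPKM in 8C, and 30.0 and 30.5 FPKM in 2C. CX22 lay below 2C and CX45 below 8C without overlap, by log2 fold changes of -0.52 (SE 0.39, adjusted p = 0.683) and -0.26 (SE 0.32, adjusted p = 0.744) that were not called. Nolc1 rose in CX45 against CX22 by 2.19 (SE 0.32, adjusted p = 0.00997) and in 8C against 2C by 1.93 (SE 0.39, adjusted p = 0.0213). Of its 4 transcript entries, 3 were listed above 0 in every CX45 and 8C library. A single entry, NM_001039351, held the whole sum in both 2C libraries and in CX22 replicate 1, while NM_001039353 held all of it in CX22 replicate 2. NM_001039353 held 52.7% and 47.3% in CX45 and 32.7% and 43.4% in 8C. With the highest entry in place of the sum, Nolc1 was called neither in 8C against 2C nor in CX45 against 2C. The call in CX45 against CX22 was lost without CX45 replicate 2 (adjusted p 0.00172 to 0.0561 over the alternatives), and that in 8C against 2C without any one of the 8C or CX45 libraries (adjusted p 0.0019 to 0.139).

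**Figure D4:**
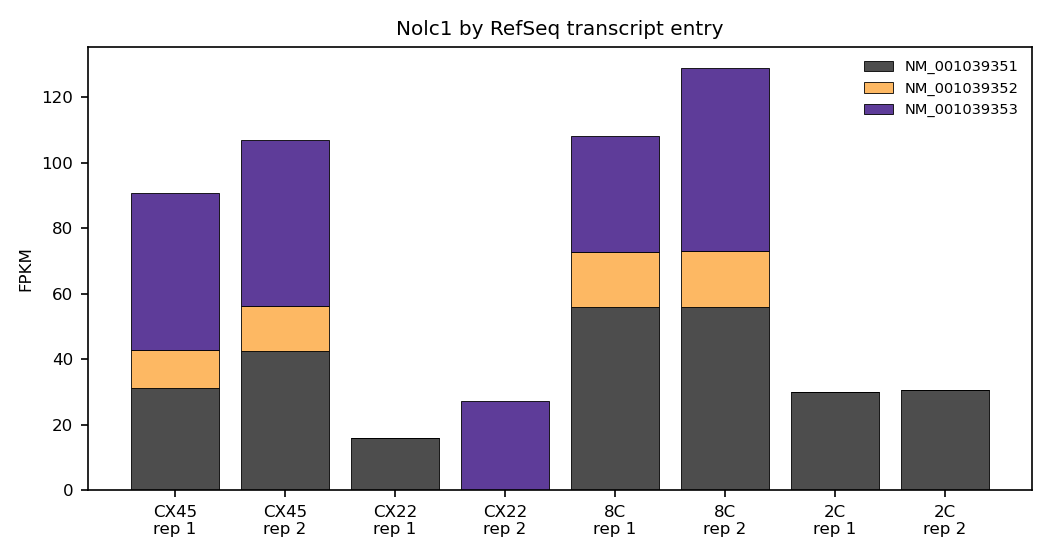
FPKM of Nolc1 in each library (vertical axis, from 0), stacked by RefSeq transcript entry; the fourth entry was listed at 0 everywhere and is not drawn. All 3 drawn entries appear in the CX45 and 8C libraries, and 1 entry each in the CX22 and 2C libraries, not the same one in the CX22 replicates.

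The H/ACA assembly factors were the lowest of the 10 genes. Naf1 (chr8:69384116-69414463) stood at 12.7 and 4.72 FPKM in CX45, 0.0342 and 1.33 FPKM in CX22, 6.61 and 4.20 FPKM in 8C, and 1.00 and 1.20 FPKM in 2C. The lowest value is that of 1.0 implied fragment, under the 0.103 FPKM that 3 fragments would give in that library. Naf1 rose in CX45 against CX22 by 2.51 (SE 0.68, adjusted p = 0.045), and that call was lost on leaving out any one CX45, CX22 or 8C library. In separate fits it was also lost with a pseudocount of 0.1 or 5, with no filter, after quantile normalization, after median scaling and with the replicate block (adjusted p 0.0141 to 0.16 across the settings tried). In 8C against 2C it stood at 1.58 (SE 0.84, adjusted p = 0.197). Shq1 (chr6:100521805-100621151) stood at 1.56 and 2.39 FPKM in CX45, 0 and 0 in CX22, 0.532 and 1.75 FPKM in 8C, and 0 and 0 in 2C. At these depths 3 fragments of Shq1 would give 0.118 to 0.155 FPKM in the libraries listed at 0. The fitted log2 fold change in CX45 against CX22 was 1.56 (SE 0.35, adjusted p = 0.0273), depends on the pseudocount, and was not called with a pseudocount of 5, with no filter, after quantile normalization or on leaving out any one CX45 or CX22 library (adjusted p 0.0086 to 0.116 over the alternatives). Shq1 entered the test only through groups in which it was high.

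The markers of other cells were compared between the groups as well. The blood and immune list (Ptprc, Hbb-bt, Hba-a1, Cd74, Lyz2 and Alas2) summed to 302 and 360 FPKM in CX45 and 12.0 and 32.0 FPKM in 8C. It summed to 33.8 and 83.7 FPKM in CX22 and 110 to 111 FPKM in 2C, and Hba-a1 held most of it in every group. Hbb-bt was listed at 0 in all 4 libraries of CX45 and 8C, and Alas2 reached 0.0938 FPKM in CX45. The 2-cell markers (Zscan4c, Zscan4d, Zfp352 and Tdpoz4) summed to 45.6 and 280 FPKM in CX45, 228 and 268 FPKM in CX22, 11.0 and 11.3 FPKM in 8C, and 195 and 204 FPKM in 2C. Their members did not move together. Tdpoz4 was higher in 8C (9.15 and 9.57 FPKM) than in 2C (0.972 and 0.699 FPKM). In CX45, Zfp352 stood at 20.9 and 179 FPKM, Tdpoz4 at 11.7 and 73.7, Zscan4d at 11.7 and 26.7, and Zscan4c at 1.28 and 0.588. The 8 cumulus and granulosa markers summed to at most 1.63 FPKM in CX45, 4.83 in CX22, 0.687 in 8C and 6.36 in 2C, and the 6 sperm markers to at most 4.91 FPKM in CX45, 42.9 in CX22, 0 in 8C and 19.6 in 2C. The part of these differences in the snoRNP values was not tested.

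Of 20 further genes of snoRNP assembly, processing and transport, 18 were tested. Fbll1, a relative of Fbl, was listed at 0 in every library, and Tert, the telomerase enzyme, was under the filter. In 8C against 2C, 5 rose and 0 fell (Snu13, Znhit3, Pih1d1, Smn1 and Phax, of which Pih1d1 was chosen after its values were seen), beside 16.3% of all genes called higher. In CX45 against CX22, 11 rose and 0 fell (23.0% of all genes called higher), and in CX45 against 2C, 6 rose and 0 fell (16.2%). In CX22 against 8C, 11 fell and 0 rose (21.4% of all genes called lower). Each of these counts includes Pih1d1, a factor of box C/D assembly that was listed at 0 in every CX22 and 2C library and so entered the test only through CX45 and 8C. Limma called 0 in CX22 against 2C, where 1 (Phax) stood higher with an unadjusted p under 0.05, and 0 in CX45 against 8C, where 2 (Tgs1 and Xpo1) did. Tgs1 was named after its values were seen, as was Phax in that comparison. The medians of the 18 genes, Pih1d1 included, were 1.76, 2.37, 2.03, -1.81, -0.26 and 0.16 on the log2 scale, in that order of comparisons. The count in 8C against 2C was 11 with 8 separate libraries and 10 with these and the replicate block. All genes called higher there were 3081 and 3033, against 1940 in the main fit. The partner count also moved when a CX22 or an 8C library was left out, as did the count of all genes. In CX45 against 8C, 1 was called with 8 separate libraries, with and without the block, beside 573 and 839 of all genes called higher. The partner count in CX45 against CX22 was 6 and 4 without CX45 replicate 1 and 2, beside 1640 and 1579 of all genes called higher. In CX45 against 2C it was 10 without either CX22 library, beside 2725 and 2721 of all genes called higher. Without CX45 replicate 2 it was 3 there, beside 1019. In CX22 against 8C the partner count was 4 without either 8C library, beside 1011 and 980 of all genes called lower. In CX22 against 2C, 2 were called without CX22 replicate 2, beside 1113 of all genes called in either direction.

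Of the partners, Znhit3, a factor of box C/D assembly, stood highest in CX45 and 8C, and Snu13 in CX22 and 2C. Znhit3 stood at 5380 and 4181 FPKM in CX45, 480 and 314 FPKM in CX22, 3941 and 3694 FPKM in 8C, and 296 and 286 FPKM in 2C. Znhit3 rose in CX45 against CX22 by 3.61 (SE 0.30, adjusted p = 0.00427) and in 8C against 2C by 3.71 (SE 0.36, adjusted p = 0.00383). Snu13 rose by 2.47 (SE 0.21, adjusted p = 0.00427) and 2.98 (SE 0.25, adjusted p = 0.00287) in the same comparisons. Phax, an export adaptor that also carries capped snoRNA precursors to the Cajal body, rose by 2.49 (SE 0.33, adjusted p = 0.00839) in CX45 against CX22, and Xpo1, an exportin that also moves box C/D particles, by 2.54 (SE 0.34, adjusted p = 0.00829). Smn1, the survival motor neuron protein of the Cajal body, rose by 3.31 (SE 0.42, adjusted p = 0.00688) in 8C against 2C. Rrp9, the protein specific to the U3 particle, was 4.17 lower on the log2 scale in CX22 than in 8C (a fold change of -4.17, SE 0.68, adjusted p = 0.0101). Its replicates were uneven, at 0.399 and 2.69 FPKM in CX22 (6.2 and 51.4 implied fragments) and 24.7 and 64.1 FPKM in 8C.

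Guide RNAs lie in introns of some of these genes. The table listed Snord57 and Snord110 inside Nop56 and Snord11 and Snord70 inside Nop58, all at 0 in all 8 libraries. These entries are short, and whether the libraries could capture such RNAs was not tested. Their values of 0 therefore do not show that the guide RNAs were absent from the embryos. The neighbouring gene Idh3b overlaps the end of Nop56, Mpp1 that of Dkc1 and Rmnd5b that of Nhp2. Reads in the shared bases cannot be told apart without strand.

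The genes most like Fbl across the 4 groups were sought by the root mean square difference of their centred group means of log2(FPKM + 1). They were Vcp (0.029), Mrpl15 (0.087), Itpa (0.093), Rps4x (0.101) and Gldc (0.102). Those most like Dkc1 were Ppp2r5e (0.031), Ints9 (0.032), Kif5b (0.057), Cenpe (0.059) and Ddx55 (0.061). Within the 10 genes, Nop56 and Gar1 were the most alike pair at 0.161, and Fbl and Dkc1 the least alike at 1.696. The differences are log2 units over 4 group means and describe shape, not level. For low genes the added 1 compresses that shape. Vcp averaged 0.401 FPKM in CX22 and 0.896 in 2C, beside 2.53 and 3.74 for Fbl.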

How the data were processed

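RNA was measured in 8 libraries, and the deposited table gives FPKM made by the authors, 1 value per RefSeq transcript entry. Reads were aligned with HISAT2 (listed with version 4.8.2) to mm9 and quantified with Cufflinks 2.2.1, per the submitters' processing notes. The sources used here give no settings, annotation release or read type. Of 41876 entries 41685 matched a symbol in RefSeq's gene table (GRCm38.p6, used for names only). FPKM of a gene's entries were summed. Depth was read from FPKM steps with GENCODE M21 transcript lengths; 62.5% to 65.3% of low values lay within 0.05 of a whole fragment. Depths and floors cover counting error only.

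Genes that reached 1 FPKM in 2 or more libraries were tested with limma 3.58.1 (R 4.3.3) on log2(FPKM + 1), with a mean trend, all groups in 1 fit and 2C averaged, which left 7 samples, and the spread of the averaged 2C value was borrowed from the rest. Fold changes on that scale understate low genes. Tests were two-sided. Named genes were the 10 genes, called partners (up to 4 per comparison by p) and Snu13, and the 5 genes nearest in pattern to Fbl and to Dkc1. The genes, lists and tests were chosen with earlier results of these data known. The alternatives changed the treatment of 2C, pseudocount, filter, scaling, trend, transcript entries, replicate block and each library.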

Additional observations from a re-analysis of the deposited data

Results flagged for a closer look

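Nop58 was flagged because limma called its difference between CX45 and CX22 unlike that between 8C and 2C in the main fit. That call was lost under some of the alternatives. Nop58 was higher in both libraries of CX45 than in CX22 by 1.52 on the log2 scale, and higher in both libraries of 8C than in 2C by 3.49. The test of the difference between these values gave -1.975 in limma (adjusted p = 0.044, and 0.00787 to 0.195 over the alternatives).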

How the results depend on the processing

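With 2 libraries a group, 3 residual degrees of freedom were left. In all, 1204 of the gene values over 19 alternatives kept their direction and side of the threshold, 74 lost a call, 16 gained one and 29 changed sign. The cause was not tested. Depth limits Naf1 in CX22 replicate 1 (1.0 implied fragment) and Shq1 in CX22 and 2C, listed at 0.

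The snoRNP genes called ranged from 3 to 7 in 8C against 2C, 4 to 9 in CX45 against CX22, 4 to 7 in CX45 against 2C, 3 to 7 in CX22 against 8C and 0 to 1 in the comparison of both differences when each library was left out in turn (Shq1 included). All genes called ranged from 1417 to 5622 in 8C against 2C, 223 to 1113 in CX22 against 2C, 0 to 79 in CX45 against 8C, 2451 to 4608 in CX45 against CX22, 1502 to 4928 in CX45 against 2C, 1871 to 5175 in CX22 against 8C, and 0 to 1114 in the comparison of both differences. With 8 separate libraries, the all-gene counts were 6697 in 8C against 2C, 1616 in CX22 against 2C, 1037 in CX45 against 8C, 6109 in CX45 against 2C and 1781 in the comparison of both differences, and 1 snoRNP gene (Nop58) was called in CX45 against 8C.

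In CX22 against 2C, where 462 genes were called, the count was 195 with a pseudocount of 5, 128 with a filter of 5 FPKM, 261 after quantile normalization and 60 with no trend. In CX45 against 8C, where 79 were called, it was 184 with a pseudocount of 0.1, 0 with a pseudocount of 5, 0 with no filter, 0 after quantile normalization, 0 after median scaling, 2 with no trend and 20 with the highest entry per gene. In the comparison of both differences, where 428 were called, it was 209 with a pseudocount of 5, 115 with a filter of 5 FPKM, 0 after quantile normalization and 0 with no trend, and the snoRNP genes called were 0 with the filter of 5 FPKM, after quantile normalization and with no trend. The snoRNP genes called in CX45 against CX22 were 5 after quantile normalization. The share of calls that were higher was 63.1% in CX45 against CX22 and 49% after quantile normalization, and in CX45 against 2C it was 54.4% and 43.3% after median scaling.

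Differences between replicates correlated by 0 to 0.1 between groups, which gave little sign that replicate numbers pair the libraries but cannot exclude it. With the replicate block, 131 genes were called in CX22 against 2C, 0 in CX45 against 8C and 0 in the comparison of both differences, where 0 snoRNP genes were called, and 5 of 31 calls of single snoRNP genes were lost. With the block and 8 separate libraries the counts were 6634 in 8C against 2C, 1346 in CX22 against 2C, 710 in CX45 against 8C, 6043 in CX45 against 2C and 1338 in the comparison of both differences, with 1 snoRNP gene called in CX45 against 8C.

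The values that changed sign were all uncalled. After quantile normalization, Dkc1 stood at -0.002 in 8C against 2C and -0.127 in CX45 against 2C, Naf1 at 0.247 in CX22 against 2C, and Naf1 at -0.026, Nhp2 at 0.337 and Shq1 at -0.036 in CX45 against 8C. In the comparison of both differences, Naf1 stood at -0.272, Nhp2 at 0.019 and Shq1 at -0.082 after quantile normalization. After median scaling, Nop10 stood at -0.172 in CX45 against 8C, Dkc1 at -0.01 in CX45 against 2C, and Dkc1 at -0.349 and Nolc1 at -0.267 in the comparison of both differences. Nop56 stood at -0.004 in CX22 against 2C with the highest entry, Gar1 at 0.002 in CX45 against 8C with a pseudocount of 5, and Fbl at 0.039 in the comparison of both differences with a pseudocount of 0.1. With each library left out in turn, Naf1 ranged from -1.022 to 0.148 in CX22 against 2C. In CX45 against 8C, Dkc1 ranged from -0.178 to 0.118, Gar1 from -0.351 to 0.347, Naf1 from -0.139 to 1.121, Nhp2 from -0.094 to 0.013 and Nop56 from -0.416 to 0.146. In the comparison of both differences, Dkc1 ranged from -0.016 to 0.37, Fbl from -0.377 to 0.184 and Nolc1 from -0.105 to 0.623.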
